A study of Mus musculus with 7 samples.

Results

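The miRNAs mmu-miR-143 and mmu-miR-145 (below miR-143 and miR-145) were measured in mouse kidney on 1-colour Agilent miRNA arrays. They are 2 of the 696 mouse miRNAs on the array and were taken by exact name from the spots that are not controls, a choice made with earlier results of these data known. The rule itself uses no measured value. Total RNA came from kidneys of male C57BL/6 mice, aged 9 to 12 weeks, collected at day 28 after ligation of the left ureter (unilateral ureteral obstruction, UUO) or after a sham operation that exposed the ureter without tying it. All mice had pentobarbital anaesthesia, and neither group carries a genetic change. There were 4 arrays with the group label non-treated (replicates 1 to 4) and 3 with the label treated (replicates 1, 3 and 4). The study states 4 mice in each group for its array comparison, and no treated replicate 2 was among the arrays used here. The labels do not say which group was obstructed. They number the treated arrays with an S, the first letter of sham, and the non-treated arrays with a C. Every difference below is therefore labelled treated minus labelled non-treated. If treated is read as obstructed, these signs run opposite to those in the study's own list of changed miRNAs. If non-treated is read as obstructed, they match that list.

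In mammals miR-143 and miR-145 are processed from a shared transcript, and their production in smooth muscle depends on serum response factor and its partner myocardin. They are known as miRNAs of contractile mural cells, that is, the smooth muscle of vessel walls and the pericytes around capillaries. MiR-145 represses Klf4 and Klf5, factors that hold smooth muscle in a less contractile state, and miR-143 represses Elk1, which opposes myocardin. Pericytes are among the cells from which the myofibroblasts of an obstructed kidney can arise, and the pair is compared below with miRNAs of fibroblasts for that reason. In the RefSeq gene table for GRCm38.p6, Mir143 and Mir145a (the entry whose synonyms hold mmu-mir-145) both lie within the span of the long non-coding RNA gene Carmn, with 0 genes starting between them.

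Signals of the arrays were compared after scaling. With the label non-treated, 232 to 282 miRNAs per array were called detected by Agilent's software, and with the label treated 193 to 214. For the 186 miRNAs that every array detected, the mean log2 signal lay between 6.65 and 7.52 in the former group and between 5.79 and 6.42 in the latter, and scaling set these means equal. All arrays lay on 1 slide and were read in 1 scan, so neither can be a batch. Precision is limited by how few arrays there are. The study counts mice per group, but the labels do not tie an array to a mouse, and p-values measure only the spread between these samples. As a check of the tissue, 6 of the 7 kidney tubule markers (miR-192, miR-194, miR-204, miR-30a, miR-30c and miR-30e) were detected on every array and miR-215 on none. Of all 696 miRNAs, 186 were detected on every array.

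Mature sequences are shown for miRNAs that mark other cell types and changed more than the pair did, because the pair is read against them further on. They come from RefSeq for GRCm38.p6, in which 4 of the 65 names looked up matched exactly. Capitals mark the seed, bases 2 to 8, with which a miRNA pairs to its targets. MiR-199a-3p and miR-199a-5p, the arms of a hairpin typical of fibroblasts, are encoded at chr1:162217883-162217904 and chr1:162217844-162217866 on the plus strand, and again at chr9:21496498-21496519 and chr9:21496537-21496559 on the minus strand. MiR-342-3p, abundant in lymphocytes, is encoded at chr12:108658680-108658702 on the plus strand.
miR-199a-3p: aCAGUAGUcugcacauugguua
miR-199a-5p: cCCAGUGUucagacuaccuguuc
miR-342-3p: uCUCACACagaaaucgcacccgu

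MiR-143 was lower in all 3 arrays of the treated label than in the 4 of the other. Its signal before scaling, summed over its probes, was 530, 646, 287 and 511 intensity units in replicates 1 to 4 of the non-treated label and 101, 118 and 91.0 in replicates 1, 3 and 4 of the treated label. Scaled and on the log2 scale, the same arrays read 8.40, 8.56, 8.26 and 8.34 against 7.35, 7.20 and 7.47. The groups did not overlap and lay 0.80 apart at their nearest arrays, and replicate 3 of the non-treated label, the dimmest before scaling, lay close to its group afterwards. The means were 8.39 ± 0.13 (SD, n = 4) and 7.34 ± 0.13 (SD, n = 3), a log2 difference of -1.05 (standard error 0.10, limma adjusted p = 3.13e-05). This is a 2.07-fold higher scaled signal on the arrays labelled non-treated, with a 95% confidence interval from 1.76 to 2.44. In RNA of kidney tissue, fewer mural cells and less miRNA per mural cell cannot be told apart.

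MiR-145 changed in the same direction at a much lower signal. Before scaling its arrays read 47.3, 54.9, 26.3 and 44.4 intensity units with the label non-treated and 9.998, 12.9 and 9.22 with the label treated. The scaled log2 signals were 4.91, 5.01, 4.81 and 4.81 against 4.02, 4.01 and 4.16, again without overlap and 0.65 apart at the nearest arrays. The means of 4.89 ± 0.094 (SD, n = 4) and 4.07 ± 0.083 (SD, n = 3) gave a log2 difference of -0.82 (standard error 0.087, limma adjusted p = 4.52e-05), a 1.77-fold higher scaled signal on the arrays labelled non-treated (95% confidence interval 1.54 to 2.03). For miR-143 and for miR-145 alike, the exact permutation p (2-sided) was 0.0571, which is the smallest value that 35 splits of these arrays allow.

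**Figure D1:**
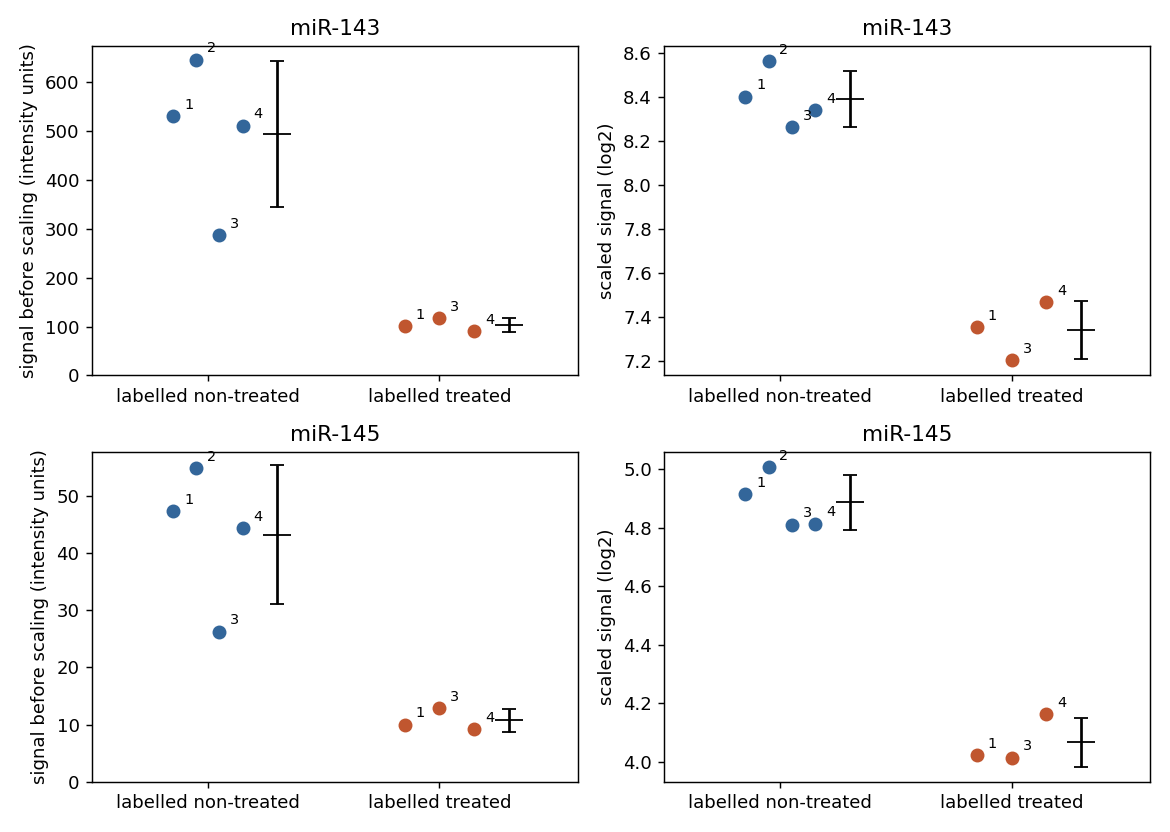
Signal of miR-143 (top) and miR-145 (bottom) on each array, before scaling in intensity units (left, axis from 0) and after scaling as log2 (right), by group label. Each point is an array with its replicate number, and the bars give the mean and SD of 4 arrays labelled non-treated and 3 labelled treated, which do not overlap in any panel.

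Both calls are to be read against a wide shift of the profile. A miRNA was tested if all arrays of either group detected it. Of the 236 tested, 61.0% passed the threshold of an adjusted p below 0.01, 34.7% with a lower signal on the arrays labelled treated, and 26.3% with a higher one. For 41.1% the arrays labelled treated all lay below those labelled non-treated. Ordered from the lowest log2 difference, miR-143 was at place 48 and miR-145 at place 57 of 236, so neither stood at the end of the distribution. The median difference over all miRNAs tested was -0.13. Scaling moved that median from -1.22 without any scaling to 0.12 with the 75th percentile of all miRNAs, and in these 2 settings miR-143 was at -2.21 and -0.80 and miR-145 at -1.98 and -0.57. With the mean of all miRNAs on the array, detected or not, they were at -1.73 and -1.4997.

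Each of the pair is covered by 2 probes of 10 spots each, and no spot was saturated. The miR-143 probes A_54_P2404 and A_54_P2405 differed by -1.08 and -1.04 on the log2 scale (limma adjusted p = 2.29e-04 and 3.17e-04 over 528 probes). The miR-145 probes A_54_P2314 and A_54_P2315 differed by -0.78 and -0.84 (limma adjusted p = 3.54e-04 and 2.45e-04). Of all probes tested, 27.1% were called lower. For each of these 4 probes the groups did not overlap, with the treated label below, as for 35.4% of all probes. The probes of a miRNA share their target and are no replicates. The log2 difference between the 2 probes of miR-143 was 0.53 ± 0.070 (SD, n = 4) with the label non-treated and 0.57 ± 0.12 (SD, n = 3) with the label treated, overlapping ranges (exact 2-sided permutation p = 0.514). For miR-145 it was 0.94 ± 0.11 (SD, n = 4) and 0.88 ± 0.14 (SD, n = 3), also overlapping (exact 2-sided permutation p = 0.514).

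The low signal of miR-145 showed at the level of spots. All 20 spots were well above background on each array labelled non-treated, but only 6, 12 and 8 of 20 on the arrays labelled treated (replicates 1, 3 and 4). Probe A_54_P2314 had 0 of 10 spots well above background on treated replicate 1. For miR-143 all 20 spots were well above background on every array. Agilent's summed signal for miR-145 was 10.8 to 12.6 times its own error estimate in the non-treated group and 5.83 to 7.51 times in the treated group, while for miR-143 this ratio stayed between 13.4 and 13.9 throughout. The standard error from the spots of a probe had a median over arrays of 0.068 and 0.062 on the log2 scale for the miR-143 probes and of 0.097 and 0.0996 for the miR-145 probes, and reached 0.21 for A_54_P2314. What part of the smaller difference of miR-145 comes from its nearness to background was not tested.

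**Figure D2:**
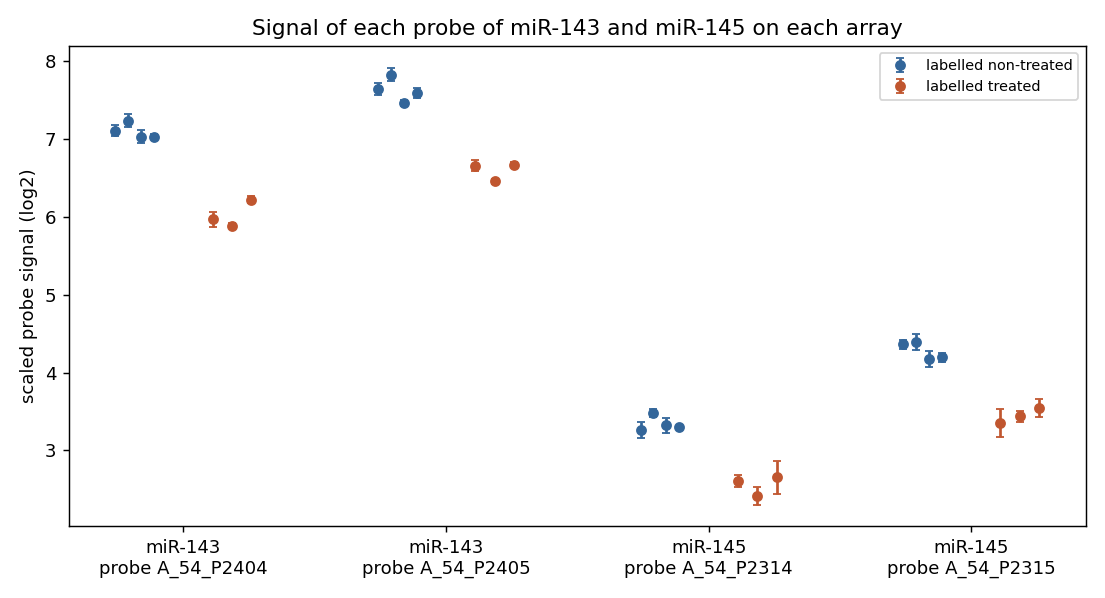
Scaled log2 signal of each probe of miR-143 and miR-145 on each array, coloured by group label, with the standard error over its spots. Within each probe the 4 arrays labelled non-treated all lie above the 3 labelled treated, and the widest error bar is that of A_54_P2314 on treated replicate 4 (0.21).

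The other strand of the miR-145 hairpin, miR-145*, is usually degraded after processing. It was not detected on any array, with 0 of 20 spots well above background and summed signals between -1.72 and 1.25 intensity units, so no difference could be measured. The other strand of the miR-143 hairpin was not analysed here.

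Since both miRNAs come from a shared transcript, their difference within an array was compared between groups, which takes out any scaling by a constant per array. Log2 miR-145 minus log2 miR-143 was -3.49, -3.56, -3.45 and -3.53 in the non-treated group and -3.33, -3.19 and -3.30 in the treated group. The values themselves reflect how strongly the probes bind and say nothing of which miRNA was more abundant. The groups did not overlap, with means of -3.50 ± 0.046 (SD, n = 4) and -3.27 ± 0.076 (SD, n = 3), so that miR-145 differed less between the labels than miR-143 by 0.23 on the log2 scale. The exact 2-sided permutation test gave p = 0.0571, the smallest possible here. In limma over all miRNAs with miR-143 subtracted on each array, this difference had a 95% confidence interval from -0.06 to 0.52 and did not pass the threshold (limma adjusted p = 0.12), nor did it with miR-145 subtracted (limma adjusted p = 0.0635). These limma values draw on the spread of all miRNAs relative to the subtracted one, and not on that of the pair alone. Their standard errors were 0.13 with miR-143 subtracted and 0.11 with miR-145 subtracted. By these tests an unequal change of the pair was not established. How many other miRNAs separate the groups after miR-143 is subtracted was not counted. Most miRNAs then passed the threshold (65.5% higher and 11.1% lower), so a difference from miR-143 was common.

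With miR-143 subtracted on each array, the remaining 235 miRNAs were compared with it directly. The change of 65.5% was higher than that of miR-143, that of 11.1% was lower, and 23.4% did not pass the threshold. With miR-145 subtracted the shares were 61.3%, 14.5% and 24.3%. These comparisons do not depend on scaling by a constant per array, apart from miRNAs at the floor, and place the lists that follow above or below the pair.

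Of the miRNAs typical of fibroblasts and other mesenchymal cells, 5 of the 9 tested were lowered more with the treated label than miR-143 was. Of the 11 listed, 10 were on the array and 9 were tested. On the arrays labelled treated 7 were lower, 0 higher and 2 (miR-140 and miR-140*) not past the threshold, where 34.7% of all miRNAs tested were lower, with a median log2 difference of -2.18 against -0.13 over all. MiR-199a-3p differed by -2.55, miR-199a-5p by -2.41, miR-214 by -2.51 and miR-21, a miRNA abundant in activated fibroblasts, by -2.18. Relative to miR-143 the changes of these 4 and of miR-199b* were lower, from -1.503 for miR-199a-3p to -1.13 for miR-21 (limma adjusted p = 2.00e-06 and 9.89e-05). MiR-140, miR-140* and miR-152 were higher relative to it, by 0.78, 0.87 and 0.55. MiR-21* was detected on all 4 arrays labelled non-treated and on 0 labelled treated, where every value was set to the floor. It was tested only because the non-treated group detected it, and its place among the 7 lower rests on the floor. Its non-treated level was higher by at least 1.34-fold. The summed scaled signal of the list lay between 14028 and 18969 units in the non-treated group and between 3876 and 3931 in the treated group. Most of this sum was miR-21, with mean log2 signals of 13.7 (non-treated) and 11.6 (treated).

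Of the miRNAs linked to the contractile state of smooth muscle, the pair were the only members that passed with a lower signal. Of the 7 listed, the pair included, 6 were tested, of which 2 were lower, 1 was higher and 3 did not pass, with a median of -0.77. Both lower calls are those of the pair itself, so the list holds no other lower call (among all miRNAs tested, 34.7% lower and 26.3% higher). MiR-133a, the member not tested, was detected on 3 arrays labelled non-treated and on 0 labelled treated. MiR-1 and miR-133b, which are best known from striated muscle, differed by -0.72 (limma adjusted p = 0.0426) and -0.92 (limma adjusted p = 0.0934), with overlapping groups. MiR-22 was higher on the arrays labelled treated by 0.91, a sign that turned without scaling (-0.24) and with spike-in scaling (-0.043). MiR-10a differed by -0.019 (limma adjusted p = 0.878). Relative to miR-143, miR-22 and miR-10a were higher by 1.96 and 1.03 (limma adjusted p = 2.36e-07 and 7.85e-05). The summed scaled signal of the list was 3063 to 3433 units with the label non-treated and 4443 to 4766 with the label treated. Most of this sum came from miR-22 and miR-10a, and it depends on the scaling as they do.

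Of 7 miRNAs linked to the synthetic, proliferating state of smooth muscle, all tested, 5 were lower, 1 was higher and 1 did not pass, with a median of -0.60. Among all miRNAs tested 34.7% were lower and 26.3% higher. MiR-31, miR-21 and miR-146a, the last a brake on inflammatory signalling, differed by -2.72, -2.18 and -2.02, each lower than the change of miR-143. MiR-24 and miR-26a differed by -0.60 and -0.39. MiR-221 and miR-222, which are encoded side by side and repress the cell cycle inhibitor p27, differed by 0.81 and 0.34 (limma adjusted p for miR-222 0.0164), signs that turned without scaling (-0.35 and -0.82) and with spike-in scaling (-0.14 and -0.62). Relative to miR-143 they were higher by 1.86 and 1.39.

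**Figure D3:**
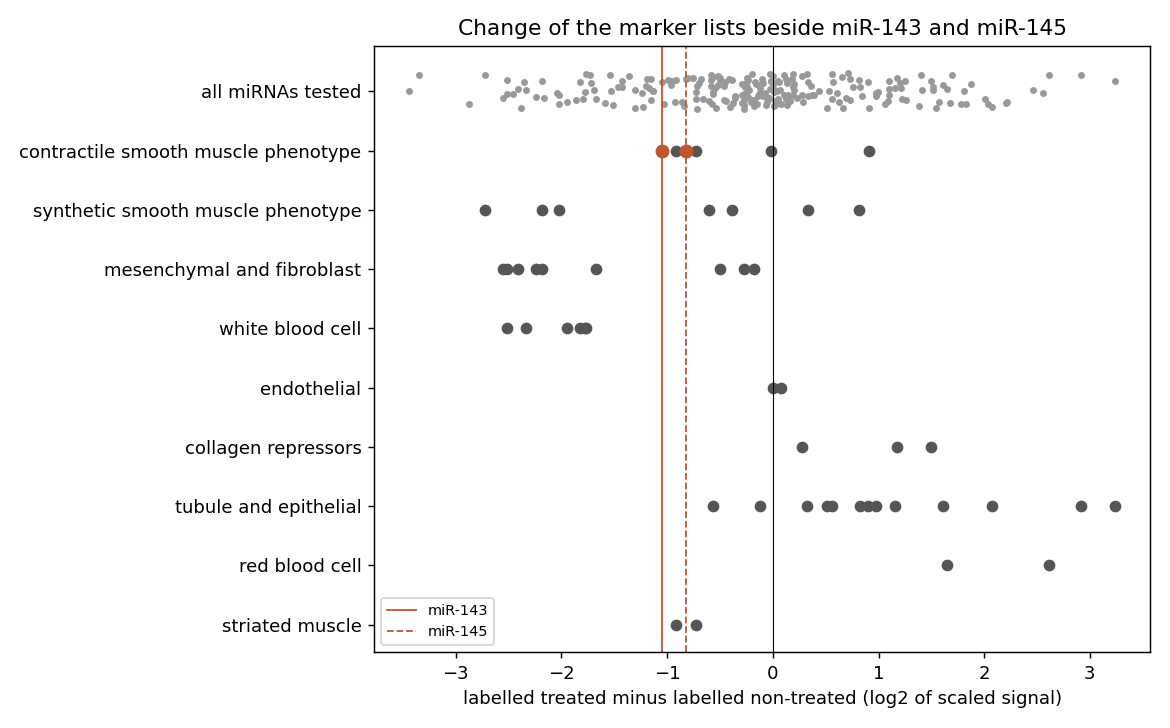
Log2 difference, labelled treated minus labelled non-treated, of all 236 miRNAs tested (top, spread vertically for view) and of the tested members of each list (a point for each miRNA), with lines at miR-143 (-1.05) and miR-145 (-0.82), whose own points are in colour. White blood cell points lie to the left of the pair, and endothelial points to its right near 0.

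The endothelial miRNA miR-126 comes from the cells that mural cells surround. MiR-126-3p differed by -0.0018 (standard error 0.076, limma adjusted p = 0.99) and miR-126-5p by 0.076 (standard error 0.10, limma adjusted p = 0.532). The summed scaled signal of these strands ranged from 1769 to 1955 units with the label non-treated and from 1780 to 1899 with the label treated, which overlap. These values depend on the scaling, and miR-126-3p was at -1.16 without scaling, -0.96 with spike-in scaling and -0.68 with the mean of all miRNAs (miR-126-5p at -1.08, -0.88 and -0.60). Relative to miR-143, miR-126-3p was higher by 1.05 (standard error 0.15, limma adjusted p = 2.15e-05), and relative to miR-145 by 0.82 (standard error 0.12, limma adjusted p = 7.96e-05). A comparison within arrays is the same for any scaling by 1 constant per array, but not for quantile normalization, where miR-126-3p was at -0.15, miR-143 at -0.92 and miR-145 at -0.57.

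Markers of other cell types moved with the label, and their part in the change of the pair was not tested. For comparison, 34.7% of all miRNAs tested were lower and 26.3% higher, and relative to miR-143 11.1% were lower and 65.5% higher. All 6 white blood cell miRNAs were lower on the arrays labelled treated, with a median of -1.89. Their summed scaled signal was 1398 to 1779 units against 339 to 352. Relative to miR-143, 5 of the 6 were lower, miR-342-3p by -1.47, and miR-150 did not pass (-0.71, limma adjusted p = 0.0258). Of 14 tubule and epithelial miRNAs 13 were tested, of which 10 were higher, 1 was lower (miR-204, at -0.56) and 2 did not pass, and 12 of the 13 were higher relative to miR-143. Their summed scaled signal was 4764 to 5761 units with the label non-treated and 12407 to 12887 with the label treated. Without scaling miR-200a, miR-200b, miR-429, miR-30b and miR-30d turned to lower. All 3 members of the miR-29 family, which represses collagens, were higher relative to miR-143, by 1.33 for miR-29a, 2.23 for miR-29b and 2.54 for miR-29c. The difference of miR-29a itself did not pass (0.28, limma adjusted p = 0.125) and was -0.88 without scaling. The red blood cell miRNAs miR-144 and miR-451 were higher by 2.61 and 1.65, with a summed scaled signal of 1079 to 2329 units against 4615 to 5118. The striated muscle markers miR-206, miR-208a-3p, miR-208b and miR-499 were detected on 0 arrays, and the summed scaled signal of that list was 26.7 to 64.8 units against 27.6 to 28.5, which overlap. Members not detected still add at least the floor of 2.49 units each, so part of these sums is no signal.

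Over the 7 arrays, the miRNA whose scaled log2 signal followed miR-143 most closely among 185 detected everywhere was miR-145 (Pearson's r = 0.997), and the reverse also held. After miR-145, the most similar to miR-143 were miR-146a (0.987), miR-142-3p (0.983), miR-199b* (0.979) and miR-23a (0.978). For miR-145 the next were miR-23a (0.99), miR-669f-3p (0.987), miR-146a (0.987) and miR-342-3p (0.983). These r describe points that share 2 groups and the array scaling, and any miRNA clearly lower with the treated label gets a high value. After subtraction of the group means the r between miR-143 and miR-145 was 0.92, second among the 185 for each of them, behind miR-193 (0.92) for miR-143 and miR-378 (0.97) for miR-145. Next for miR-143 were miR-378 (0.89), miR-365 (0.88) and miR-126-5p (0.86). For miR-145 they were miR-690 (0.88), let-7a (0.87) and miR-193 (0.84).

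The arrays occupied 2 rows of the slide, and the difference was recomputed within each after seeing the data. In row 1, with replicates 1 and 2 of the label non-treated and replicate 1 of the label treated, miR-143 differed by -1.13 and miR-145 by -0.94. In row 2, with replicates 3 and 4 of each label, they differed by -0.97 and -0.72. Row 1 holds a single array of the treated label, so its values have no replicate check on that side. With the row as a block the differences were -1.03 and -0.81.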

How the data were processed

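Per the submitters' processing notes, Agilent Feature Extraction 10.7.3.1 read the arrays. The deposited processed signal is a linear intensity after background subtraction and has not been normalized between arrays. They also deposited a table of intensity values, which holds the first spot of each probe (relative tolerance 1e-05) and, for treated replicate 4, the software's error estimate instead. Here the processed intensity was averaged over each probe's spots, outliers left out, and the probes of a miRNA were added up. Each array was scaled by its mean log2 signal over the 186 miRNAs detected on every array, where the study's methods name the mean of each array without saying over which miRNAs. Scaled signals under 2.49 were raised to that floor (1.25 for single probes), the median over arrays of the lowest detected signal, and log2 was taken. Limma 3.58.1 in R 4.3.3 tested 236 miRNAs with Benjamini-Hochberg adjustment at 0.01. Only this step was tried on simulated log2 signals, with planted changes larger than those of the pair. The simulation did not cover the averaging of spots, the scaling, the floor or the filter. Permutation tests are exact and 2-sided. Within each group, Pearson's r across miRNAs between arrays was at least 0.987.

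The members and lists were chosen with earlier results of these data known. Named are the pair, its other strands, the listed miRNAs and the 5 nearest in profile by each measure. Alternatives covered scaling, signal column, filter, floor, test, replicate number and each array left out. Slide rows were added after seeing the data. Normexp used median signals.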

Additional observations from a re-analysis of the deposited data

Results flagged for a closer look

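Of 12 measures tested for an array apart from its group of 4, all among the arrays labelled non-treated, 2 stood out, both for replicate 3, and chance gives 5% of groups. Over the miRNAs that every array detected its mean log2 signal was 6.65, where the others had 7.40 to 7.52. Over the spike-in probes the mean was 10.20 on the log2 scale, where the others had 10.60 to 10.67. The measures are related, since both follow the brightness of the array. No signal of miR-143, miR-145 or their probes stood out in this way. Without this array miR-143 differed by -1.12 and miR-145 by -0.87.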

How the results depend on the processing

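MiR-143 was lower with the treated label and past the threshold under all 34 alternatives, from -2.21 to -0.80, and miR-145 under 31 of 34. Neither miRNA is in the study's own list of changed miRNAs. The scaling behind that list was not reproduced, so these values cover only the scalings tried here. MiR-145 turned to 0.18 with normexp and an offset of 50 on median signals (limma adjusted p = 0.0565), and the cause was not tested. It did not pass with the authors' table, at -0.62 (limma adjusted p = 0.106), nor with that table without treated replicate 4, at -0.83 (limma adjusted p = 0.011), which rest on 1 spot per probe. With each array left out in turn, miR-143 stayed between -1.12 and -0.98, miR-145 between -0.87 and -0.78, and their difference between 0.19 and 0.26. Scaling by a constant per array, the filters, the floors, the t-test, limma trend, the adjustment and the threshold cannot move that difference. Under the alternatives that can, it stayed above 0, from 0.19 to 1.12. It was highest with normexp and reached 0.36 with quantile normalization. The normexp offset of 50 is larger than every mean signal of the miR-145 probes (3.23 to 35.9 intensity units). The value with normexp is therefore no support for an unequal change of the pair.

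The number of miRNAs past the threshold was 144 (82 lower and 62 higher on the arrays labelled treated). It was 61 with the authors' table, 94 with that table without treated replicate 4, 84 with Bonferroni adjustment, 83 within slide row 1 and 92 within slide row 2, and 126 to 157 with an array left out. The share of lower calls was 56.9%, against 67.5% with the 75th percentile of miRNAs detected everywhere, 44.5% with that percentile over all miRNAs, 84.7% with the mean over all, 95.4% without scaling, 90.4% with spike-in scaling, 37.3% with normexp and 44.3% with the authors' table. With the replicate number as a block, miR-143 was at -0.99, miR-145 at -0.78, their difference at 0.21 and the count at 126. Same-numbered arrays correlated at 0.049, -0.089 and 0.14 in their deviations from the group means. With so few arrays, these values cannot decide whether the numbers pair the samples. On the arrays labelled treated, 6 to 12 of the 20 miR-145 spots were well above background.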

Other observations

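In the authors' table the column medians were 0.445, 0.532, 0.470 and 0.346 intensity units for the arrays labelled non-treated and 0.322 and 0.276 for treated replicates 1 and 3. For treated replicate 4, whose column is the error estimate, the median was 1.001. The other columns have the linear scale of the scanner signals and no centring.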
